A study of Arabidopsis thaliana with 27 samples.

Results

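Messenger RNA was sequenced from gynoecia of Arabidopsis thaliana, the female organs of the flower that enclose the ovules, and plants carrying a Pstk:axr3-1 transgene in an arf6 mutant were compared with plants carrying the transgene alone. By title, the comparison holds 8 of the 27 libraries of the series: 4 labelled arf6 Pstk_axr3 (here arf6axr3) and 4 labelled Pstk_axr3 (here axr3). Both groups therefore express axr3-1, a gain-of-function form of AXR3/IAA17 whose protein is stabilised, under the promoter of the ovule identity gene SEEDSTICK (STK), and the control group is itself transgenic. All plants are of the Columbia background, and the titles give lines 15-5 and 25-2, each a separate transgenic line of 1 construct. In axr3, replicate 3 is line 15-5 and replicates 1 and 2 name no line. The title of replicate 4 names a cross of Columbia and line 25-2, taken here as an F1. In arf6axr3, replicates 1 and 3 are line 15-5 and replicates 2 and 4 are line 25-2. Line 25-2 thus entered axr3 only through an F1, so the presence of arf6 and the cross cannot be told apart within that line. The arf6 allele is not given in the sources used here. Levels in 4 wild-type and 2 arf6 arf8 double-mutant gynoecium libraries (here arf6arf8) are printed for orientation, since wild type carries neither the transgene nor arf6. A further 4 gynoecium libraries, of mARF8 plants whose ARF8 transgene escapes miR167, entered the statistical fit for its estimate of spread and are not compared here. Gynoecia measured 0.9 to 1.4 mm and came from stage 12 flowers collected 1 to 3 h after dawn.

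Auxin acts on transcription through auxin response factors (ARFs) such as ARF6 and ARF8, which bind DNA, and through Aux/IAA proteins such as IAA17, which bind ARFs and repress them until auxin triggers their breakdown. A stabilised Aux/IAA protein therefore blocks auxin responses in the cells that make it. In flowers, ARF6 and ARF8 act together in stamen elongation, petal growth and gynoecium maturation, and STK is expressed in ovules and nearby tissue of the ovary. Whole gynoecia were measured, so a lower level can mean fewer cells of a type or less RNA per cell, which cannot be told apart in these data.

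The deposited values are read counts per locus. Levels below are CPM, the counts relative to library size after scaling for composition. Total counts ran from 7291701 to 15374607 in arf6axr3 and from 5221673 to 11066943 in axr3, and 3 counts, taken as the floor of detection, correspond to 0.195 to 0.575 CPM in these 8 libraries. Replicates differed by more than counting noise in every pair, with a mean chi-square per gene of 3.14 to 8.16 in arf6axr3 and 4.45 to 10.4 in axr3. Nothing in the labels ties replicates to separate plants, and p-values then measure only how far these samples spread, possibly for technical reasons. Ovary and ovule markers were present in all 8 libraries, with SPT at 55.7 to 66.7 CPM, SHP1 at 69.1 to 93.1 CPM and INO at 11.2 to 80.9 CPM. Of markers of stamen cells, the tapetum list summed to 27.1 to 35.8 CPM in arf6axr3 and 33.9 to 37.6 CPM in axr3. MS1 and MYB80 were at 0 in all 8 libraries, and 8 of 14 members lay under 1 CPM throughout. The most abundant member, PKSA, stood at 19.6 to 25.9 CPM over the 8 libraries and made up most of the sum.

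The promoters of 5 genes named below are shown first. Each is the 250 bases before the annotated start on the gene's strand, from the RefSeq assembly TAIR10.1. YUC1 and FAR5 were lower in arf6axr3 and AT3G26140 was higher, and none of these windows holds TGTCTC, the auxin response element first described as bound by ARFs, or the variant TGTCGG on either strand. IAA19 and IND were lower too, and their windows hold 3 and 2 copies of TGTCTC, written in capitals as TGTCTC or as its reverse complement GAGACA.
YUC1, chr4:15700579-15700828, plus strand: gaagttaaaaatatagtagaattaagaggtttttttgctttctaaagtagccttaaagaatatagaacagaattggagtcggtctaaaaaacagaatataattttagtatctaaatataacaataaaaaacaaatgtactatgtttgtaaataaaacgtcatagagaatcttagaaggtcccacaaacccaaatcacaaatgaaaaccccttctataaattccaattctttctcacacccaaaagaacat
FAR5, chr3:16137326-16137575, plus strand: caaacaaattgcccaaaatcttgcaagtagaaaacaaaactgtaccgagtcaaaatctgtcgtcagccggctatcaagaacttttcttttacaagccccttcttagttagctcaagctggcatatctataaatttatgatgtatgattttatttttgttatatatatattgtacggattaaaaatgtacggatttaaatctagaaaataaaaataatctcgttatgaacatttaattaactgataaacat
AT3G26140, chr3:9563323-9563572, minus strand: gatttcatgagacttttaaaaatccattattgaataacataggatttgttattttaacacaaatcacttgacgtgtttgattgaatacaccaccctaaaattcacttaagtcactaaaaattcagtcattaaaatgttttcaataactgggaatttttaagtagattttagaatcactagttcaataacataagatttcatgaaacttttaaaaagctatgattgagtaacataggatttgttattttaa
IAA19, chr3:5263751-5264000, plus strand: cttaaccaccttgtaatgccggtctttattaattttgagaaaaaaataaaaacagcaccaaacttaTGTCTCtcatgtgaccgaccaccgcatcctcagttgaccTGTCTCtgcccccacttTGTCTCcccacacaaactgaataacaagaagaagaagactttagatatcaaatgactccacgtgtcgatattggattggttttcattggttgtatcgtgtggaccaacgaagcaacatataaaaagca
IND, chr4:43198-43447, minus strand: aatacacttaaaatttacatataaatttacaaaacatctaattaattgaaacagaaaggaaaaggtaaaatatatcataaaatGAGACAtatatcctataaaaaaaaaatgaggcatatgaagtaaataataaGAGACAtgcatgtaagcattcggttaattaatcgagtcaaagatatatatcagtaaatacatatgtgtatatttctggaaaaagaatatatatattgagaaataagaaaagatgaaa
Over the 18566 tested genes with such a window, 10.6% hold TGTCTC and 4.64% hold TGTCGG on either strand. Among genes called higher in arf6axr3 the shares were 12.7% and 5.04%, and among genes called lower 10.1% and 4.25%. Of the 12 highest genes described below 1 window holds either motif, and of the 12 lowest 0 windows do. A match describes these letters only.

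The altered genes were examined first. In arf6axr3 1 to 4, ARF6 (AT1G30330, chr1:10685822-10690988 in TAIR10.1) stood at 55.7, 57.3, 59.9 and 61.8 CPM, and in axr3 1 to 4 at 457, 435, 518 and 488 CPM. The groups lay far apart, at 58.7 ± 2.73 against 475 ± 36.3 CPM (SD, n = 4 each), and axr3 overlapped wild type at 502 ± 67.2 CPM (n = 4). The log2 fold change of ARF6 was −3.02 (SE 0.10, adjusted p = 2.45e-12, edgeR quasi-likelihood test). Its close relative ARF8 stood at 411 ± 6.34 CPM in arf6axr3 and 384 ± 17.2 CPM in axr3 (n = 4 each), a log2 difference of 0.10 that did not pass the test (adjusted p = 0.592). MIR167a, a precursor locus of the microRNA that targets ARF6 and ARF8, lay under 1 CPM in all 8 libraries (adjusted p = 0.517).

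IAA17 (AT1G04250), the gene of which the transgene carries a stabilised form, was also lower in arf6axr3. It stood at 35.9, 32.0, 29.6 and 26.6 CPM in arf6axr3 1 to 4 and at 73.5, 84.8, 69.4 and 68.3 CPM in axr3 1 to 4, against 8.09 to 14.3 CPM in wild type. The groups did not overlap, and every arf6axr3 library lay above every wild-type library. The log2 fold change against axr3 was −1.25 (SE 0.15, adjusted p = 2.93e-05). It was −1.08 with line 15-5 alone, where the call was lost, with adjusted p from 1.23e-11 to 0.0568 over all settings. Reads of the transgene and of the endogenous gene cannot be told apart, and the loss of ARF6 and the lower IAA17 transcript cannot be told apart as the source of any difference below.

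STK, whose promoter drives the transgene, separated the lines within arf6axr3. It stood at 157 and 159 CPM in arf6axr3 of line 15-5 and at 31.8 and 35.5 CPM in arf6axr3 of line 25-2. In axr3 it stood at 92.7 and 60.8 CPM in the libraries with no line named, 104 CPM in line 15-5 and 45.7 CPM in the F1 of line 25-2, against 129 to 138 CPM in wild type. The group difference was 0.29 (adjusted p = 0.723), while within arf6axr3 line 25-2 was lower than line 15-5 by a log2 difference of −2.24 (SE 0.26, adjusted p = 0.00137). That test between lines called 3 of 18616 genes, or 0.0161%, and the 3 were lower in line 25-2. The others were TRE1, a trehalase, at 35.1 and 25.2 CPM in line 15-5 and 4.76 and 8.38 CPM in line 25-2 (−2.26), and AT5G44440, described below (−1.18). With 2 libraries a side, that count was 23 without arf6axr3 2, of which 20 were higher and 3 lower in line 25-2, and DESeq2 called 19, of which 7 were higher and 12 lower.

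**Figure D1:**
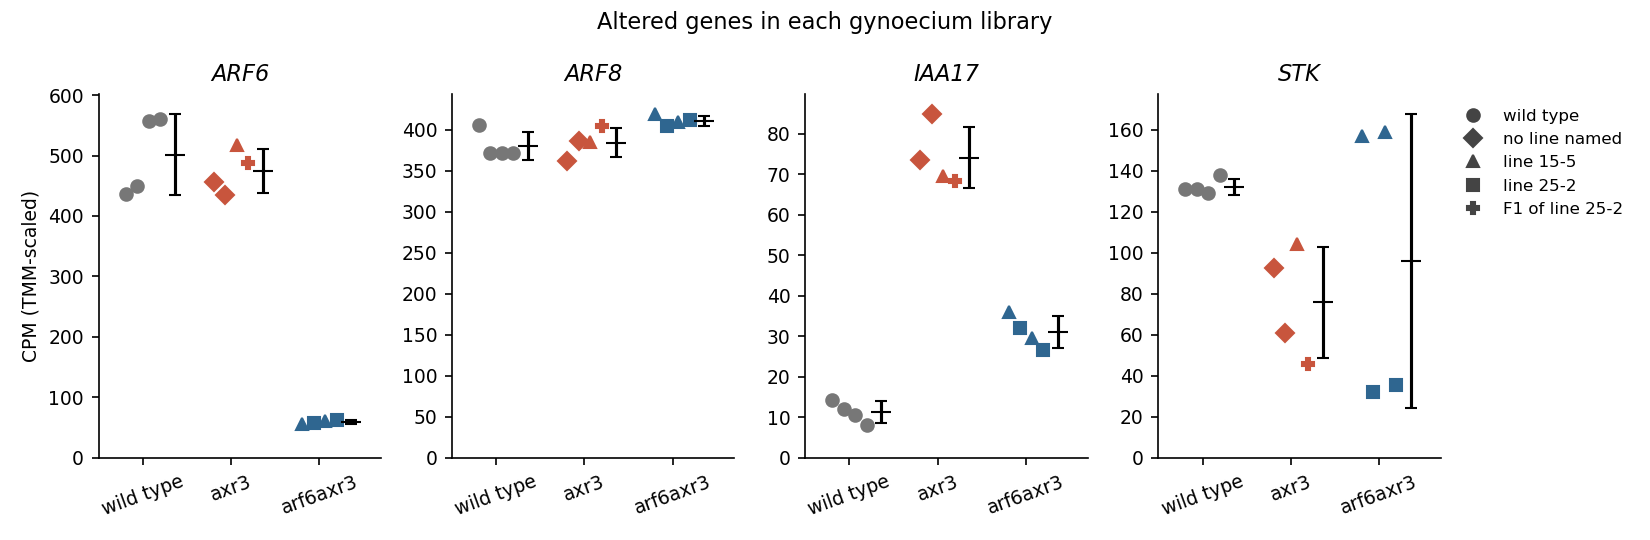
CPM of the altered genes in each wild-type, axr3 and arf6axr3 gynoecium library, 1 point per library, with symbols for the transgenic line and bars for the mean ± SD. ARF6 and IAA17 lie lower in all 4 arf6axr3 libraries than in all 4 axr3 libraries, and STK separates the 2 lines within arf6axr3.

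Across the genome, 1593 of 18616 genes tested, or 8.56%, differed between arf6axr3 and axr3 at an adjusted p under 0.05 (edgeR quasi-likelihood test). Of these 675 were higher in arf6axr3 (3.63% of genes tested) and 918 lower (4.93%). The larger differences were mostly decreases: 477 genes were at least 2-fold lower and 148 at least 2-fold higher. In 2699 genes, or 14.5%, the 4 libraries of 1 group did not overlap the 4 of the other, and 1375 of the called genes were among them. The median log2 fold change over all genes tested was −0.003. With libraries of a named line only, which are also those with high library numbers, 874 genes were called, 402 higher and 472 lower. That fit lacks axr3 1 and 2 and so has 2 axr3 libraries in place of 4, and the libraries left out and the smaller number cannot be told apart. Without axr3 1 alone the count was 1357, and without axr3 2 alone it was 1082.

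Against wild type, axr3 differed in 2929 genes (15.7%), 1614 higher (8.67%) and 1315 lower (7.06%), and arf6axr3 in 320 genes (1.72%), 199 higher (1.07%) and 121 lower (0.65%). These comparisons share the axr3 and arf6axr3 libraries with the main one, so their calls are given side by side and are not counted as separate evidence. The count of 320 was 143 without wild type 2, 177 without arf6axr3 2, 195 without arf6axr3 3, 185 without arf6axr3 4, and 507 with DESeq2.

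**Figure D2:**
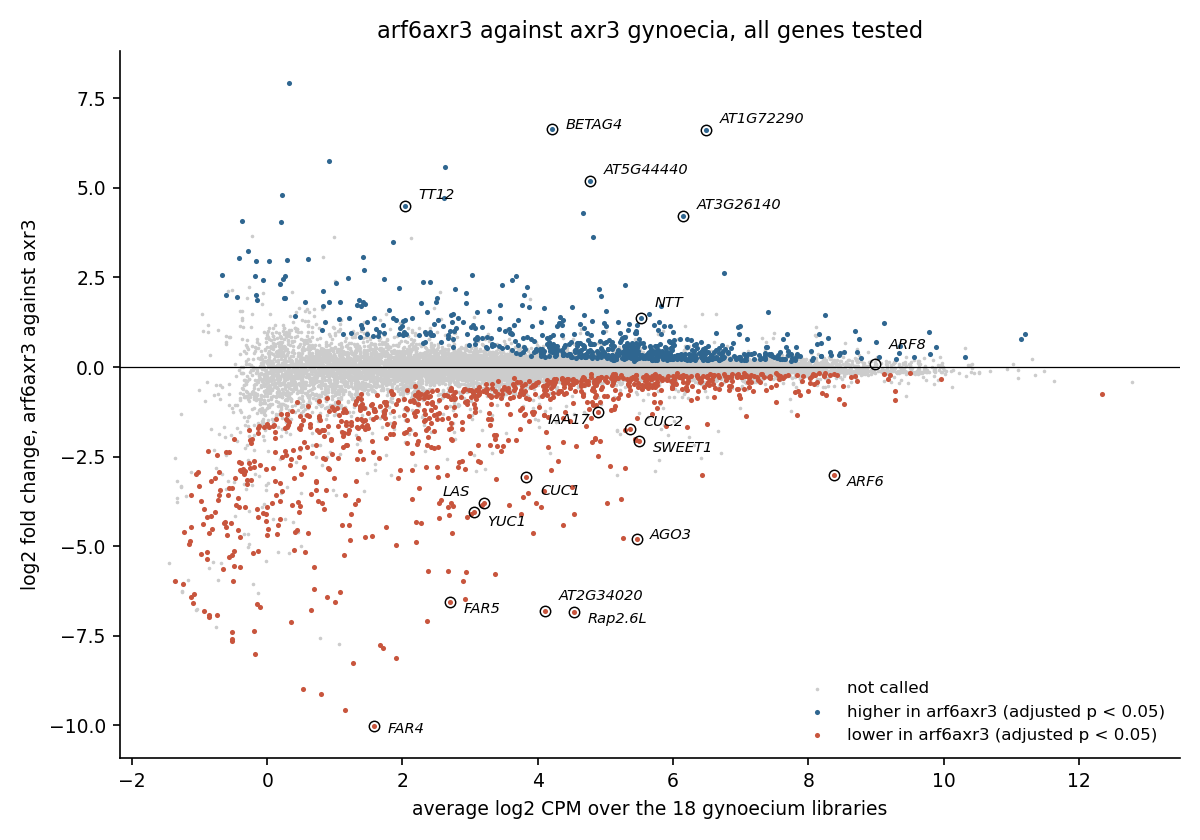
Log2 fold change of arf6axr3 against axr3 for each of 18616 genes (vertical axis) against average log2 CPM (horizontal axis), with genes called higher in blue and lower in red and some of the named genes ringed and labelled. ARF6 lies at −3.02 and ARF8 at 0.10, and the fitted value of FAR4, which has no count in arf6axr3, depends on the prior count of the fit.

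The genes lowest in arf6axr3 were close to absent there. The 12 lowest called genes with a mean of at least 1 on the log2 CPM scale and no overlap between groups included FAR4 and FAR5, fatty acyl-CoA reductases that make the primary alcohols of suberin. FAR4 (AT3G44540, chr3:16123426-16128030) had no count in any arf6axr3 or wild-type library and stood at 8.90, 25.9, 7.00 and 18.4 CPM in axr3 1 to 4. Set against the floor of 3 counts over the group, it was at least 169-fold lower in arf6axr3 (adjusted p = 4.65e-05). FAR5 (AT3G44550), which starts 9545 bases beyond the end of FAR4 on the same strand, stood at 0.115 to 0.411 CPM in arf6axr3 and at 17.5, 56.9, 16.2 and 33.2 CPM in axr3, a log2 fold change of −6.57 (SE 0.49, adjusted p = 7.28e-08). Both genes were highest in axr3 2 and next in axr3 4.

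Enzymes and regulators of other kinds followed the same pattern of levels. AT5G51500, annotated as a pectin methylesterase, had no count in arf6axr3 or wild type and stood at 5.59, 20.0, 5.29 and 13.8 CPM in axr3, so that it was at least 124-fold lower. Its adjusted p was 0.00135, and DESeq2 did not call it (0.185; 0.00015 to 0.185 over all settings). The peroxidase gene AT3G50990 had 2 counts over the arf6axr3 libraries and 11.4 to 18.5 CPM in axr3, a ratio of 279 with a 95% counting interval of 76.8 to 2310 (adjusted p = 1.39e-06). The cytochrome P450 gene CYP71B23 had 2 counts as well, against 8.61 to 29.0 CPM in axr3, a ratio of 317 (87.3 to 2630, adjusted p = 9.05e-07). These intervals and floors cover counting error only.

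Rap2.6L, an ethylene response factor known from shoot regeneration and wounding, stood at 1.21, 0.772, 1.1 and 0.688 CPM in arf6axr3 1 to 4 and at 65.1, 180, 49.6 and 132 CPM in axr3 1 to 4. The arf6axr3 libraries lay near the wild-type range of 0.299 to 0.746 CPM, and the log2 fold change was −6.84 (SE 0.45, adjusted p = 1.31e-08). AT2G34020, annotated as a calcium-binding EF-hand protein, had the smallest SE of the 12, at 0.274 to 1.21 CPM against 66.3, 84.7, 71.7 and 87.5 CPM, a log2 fold change of −6.82 (SE 0.24, adjusted p = 2.85e-12). HMT3, a homocysteine methyltransferase of methionine metabolism, stood at 0 to 0.229 CPM against 6.01 to 13.5 CPM (−6.29, adjusted p = 1.61e-07).

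The remaining members of the 12 were MPC, AT3G05770, WRKY40 and AT2G05910. MPC, a maternally expressed imprinted gene of the endosperm, had 1 count in arf6axr3, against 2.74, 37.3, 1.88 and 9.19 CPM in axr3 (ratio 394, interval 70.1 to 15600, adjusted p = 0.00633), and line 15-5 alone did not call it. AT3G05770 had 3 counts against 6.82 to 11.0 CPM (ratio 109, interval 36.8 to 531, adjusted p = 1.25e-06), and AT2G05910, a LURP-one-like protein, stood at 0.134 to 0.322 against 3.68 to 16.4 CPM (−5.26, adjusted p = 6.38e-06). WRKY40, a wound- and pathogen-responsive transcription factor, stood at 0.129 to 0.268 CPM against 11.2, 19.8, 0.987 and 9.99 CPM (−5.70, adjusted p = 0.00323). The WRKY40 call was lost with named lines only (0.0646; 2.96e-06 to 0.785 over all settings), and the other 11 kept theirs there. Just outside the 12 lay MAPKKK21 at −4.96.

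**Figure D3:**
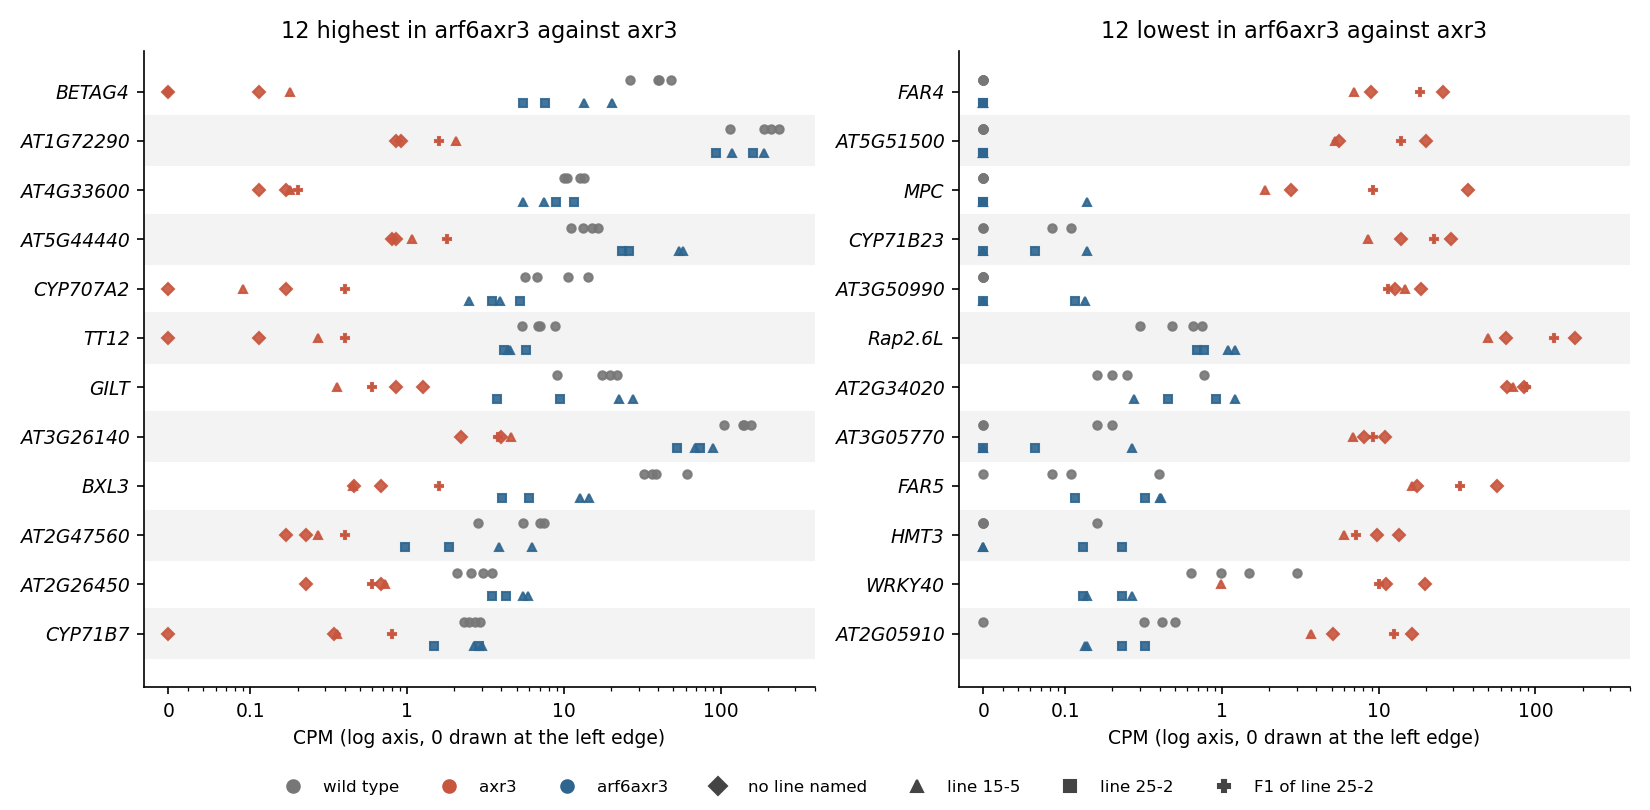
CPM in each wild-type (grey), axr3 (red) and arf6axr3 (blue) library for the 12 highest (left) and 12 lowest (right) called genes, on a log axis with 0 at the left edge and symbols for the transgenic line. In every row the 4 arf6axr3 points lie on 1 side of the 4 axr3 points, by the rule that chose the genes, and for FAR4 all arf6axr3 and wild-type points are at 0.

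The 12 highest called genes, chosen by the same rule, lay at 0 to 4.58 CPM in axr3. BETAG4, annotated as a beta-1,3-glucanase that cleaves callose-type glucans, stood at 20.3, 5.47, 13.4 and 7.57 CPM in arf6axr3 1 to 4 and at 0.114, 0, 0.179 and 0 CPM in axr3 1 to 4. It was higher by a ratio of 105 with a 95% counting interval of 35.8 to 513 (adjusted p = 5.59e-06), yet arf6axr3 lay under the wild-type range of 26.5 to 48.3 CPM. AT1G72290, a Kunitz-type protease inhibitor, stood at 190, 94.2, 118 and 160 CPM against 0.913, 0.847, 2.06 and 1.60 CPM (6.61, SE 0.41, adjusted p = 5.47e-09), with 115 to 237 CPM in wild type. AT3G26140, annotated as a cellulase of glycosyl hydrolase family 5, stood at 89.2, 52.8, 68.8 and 73.7 CPM against 4.00, 2.20, 4.58 and 3.80 CPM (4.22, SE 0.21, adjusted p = 2.97e-10), and wild type at 106 to 157 CPM.

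TT12, the transporter that carries proanthocyanidin precursors into the vacuole of seed coat cells, stood at 4.43, 4.18, 4.52 and 5.74 CPM in arf6axr3 and 0.114, 0, 0.269 and 0.399 CPM in axr3. The log2 fold change of TT12 was 4.5 (SE 0.39, adjusted p = 4.93e-07, edgeR). CYP707A2, a hydroxylase that inactivates abscisic acid, stood at 2.47 to 5.28 CPM against 0 to 0.399 CPM (4.71, SE 0.71, adjusted p = 0.00028). AT5G44440, an FAD-linked oxidase of the berberine bridge enzyme family, stood at 57.5, 23.4, 54.3 and 26.0 CPM in arf6axr3 1 to 4, higher in the 2 libraries of line 15-5 than in those of line 25-2, and at 0.799 to 1.80 CPM in axr3 (5.19, SE 0.38, adjusted p = 5.16e-08). All its arf6axr3 libraries lay above the wild-type range of 11.1 to 16.6 CPM.

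The other 6 were higher by 2.72 to 5.58 on the log2 scale. They were AT4G33600, of unknown function, at 5.58, the thiol reductase GILT at 4.29, the beta-xylosidase BXL3 at 3.63, the RING-finger protein gene AT2G47560 at 3.48, the pectin methylesterase gene AT2G26450 at 3.06 and the cytochrome P450 CYP71B7 at 2.72. GILT and BXL3 were higher in line 15-5 than in line 25-2, at 27.5 and 22.6 against 3.73 and 9.52 CPM for GILT and at 14.4 and 12.6 against 4.05 and 5.97 CPM for BXL3. Neither was called between the lines. The call of AT2G47560 was lost with named lines only (0.0536; 7.57e-06 to 0.559 over all settings), and the other 11 of the 12 highest kept theirs. Just outside lay AT2G26440 at 2.63, a pectin methylesterase gene 1419 bases from AT2G26450 on the same strand, so that reads shared by the pair could be split between them. All 12 highest and all 12 lowest genes kept their calls when any 1 of the 8 libraries was left out.

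Of the Aux/IAA repressors other than IAA17, 3 of 21 tested were called higher and 3 lower, or 28.6% beside 8.56% over all genes. The median log2 fold change was −0.01 beside −0.003 over all genes. IAA7 stood at 13.4, 7.72, 10.1 and 11.7 CPM in arf6axr3 and 2.74, 3.73, 3.41 and 6.59 CPM in axr3 (1.44, SE 0.27, adjusted p = 0.00233), under the wild-type range of 27.1 to 44.0 CPM. IAA19, an auxin-induced repressor active in growing organs, stood at 0.402, 0.901, 0.822 and 1.84 CPM against 4.57, 3.73, 3.23 and 1.80 CPM, with arf6axr3 4 and axr3 4 overlapping (−1.75, SE 0.41, adjusted p = 0.0121). The other calls were IAA13 and IAA26 higher and IAA3 and IAA27 lower, by at most 0.83 in size. The list counts fell to 1 higher without arf6axr3 1 or 2 and to 1 lower without axr3 2 or arf6axr3 3, and with named lines only both IAA7 and IAA19 lost their calls. None of 8 GH3 genes, whose enzymes conjugate auxin to amino acids, and none of 7 SAUR growth genes was called, with 1 and 0 higher and 4 and 0 lower at an unadjusted p under 0.05. DESeq2 called 2 GH3 genes lower and no SAUR gene.

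Among the ARFs other than ARF6 and ARF8, 3 of 13 were called higher and 1 lower, or 30.8% beside 8.56% over all genes. ARF4, a repressor-type ARF of organ polarity, fell in arf6axr3, from 107 to 117 CPM in axr3 down to 75.5 to 96.6 CPM (−0.36, SE 0.07, adjusted p = 0.00203). ARF10, a target of another microRNA, stood at 42.7 to 46.6 CPM against 29.5 to 40.7 CPM (0.39, SE 0.09, adjusted p = 0.0112). ARF2 and ARF19 were called by 0.23 and 0.52, and the number called higher was 1 without axr3 2, axr3 4, arf6axr3 1, arf6axr3 2 or arf6axr3 3 and 0 with named lines only.

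Auxin synthesis showed larger differences. Of 17 genes of auxin synthesis and transport tested, 1 was called higher and 4 lower, with a median of −0.22. That is 29.4% called, beside 8.56% over all genes. YUC1 (AT4G32540), a flavin monooxygenase that makes auxin and is needed with YUC4 for floral organ formation, stood at 1.21, 2.51, 1.37 and 2.18 CPM in arf6axr3 1 to 4 and at 30.8, 38.4, 26.3 and 31.8 CPM in axr3 1 to 4. The arf6axr3 libraries lay near the wild-type range of 1.2 to 1.43 CPM, and the log2 fold change was −4.04 (SE 0.21, adjusted p = 7.56e-10). YUC4 stood at 9.52, 10.4, 8.90 and 9.52 CPM against 40.8, 59.8, 34.2 and 48.3 CPM (−2.23, SE 0.17, adjusted p = 6.42e-08), with 7.47 to 11.2 CPM in wild type. LAX3, an auxin importer, also fell (−0.91, adjusted p = 0.0014), as did YUC8 (−1.09, adjusted p = 0.0238). PIN7, an auxin exporter, rose by 0.26 (adjusted p = 0.0127). YUC8 lost its call without axr3 1, arf6axr3 1, arf6axr3 2 or arf6axr3 3, and YUC8 and PIN7 lost theirs with named lines only.

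CUC1 and CUC2 were lower in arf6axr3. These transcription factors set organ boundaries and the margins from which ovules form. They belong to the list of ovule and integument regulators, of which 5 of 19 tested were called higher and 3 lower (median 0.18). Of that list 42.1% were called, beside 8.56% over all genes. CUC1 stood at 5.37, 5.21, 6.85 and 5.85 CPM in arf6axr3 and 28.7, 60.0, 36.3 and 73.5 CPM in axr3 (−3.08, SE 0.25, adjusted p = 2.23e-07), with 2.69 to 4.46 CPM in wild type. CUC2 stood at 29.9, 33.3, 33.7 and 33.8 CPM against 97.9, 120, 106 and 114 CPM (−1.74, SE 0.17, adjusted p = 2.35e-06), and all 4 arf6axr3 libraries lay above the wild-type range of 11.5 to 19.1 CPM. WUS, a stem cell and nucellus regulator, stood at 8.32 to 14.2 CPM against 20.0 to 32.1 CPM (−1.34, SE 0.22, adjusted p = 0.000623).

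The ovule regulators called higher were BEL1, TT16, AG, SUP and KAN4. BEL1, a homeodomain protein needed for integuments, stood at 48.2, 45.3, 36.6 and 42.9 CPM in arf6axr3 and 27.7, 12.0, 22.8 and 9.19 CPM in axr3 (1.2, SE 0.20, adjusted p = 0.000848). TT16, a MADS-domain protein of the seed coat that also acts in integuments, stood at 11.5, 7.79, 8.36 and 7.80 CPM against 3.77, 0.339, 2.51 and 0.999 CPM (2.05, SE 0.33, adjusted p = 0.000592). In axr3 both were lowest in replicates 2 and 4. AG, the carpel and stamen identity gene, stood at 117 to 160 CPM against 84.3 to 106 CPM (0.53, SE 0.09, adjusted p = 0.00138). SUP and KAN4 were called by 0.62 and 0.93 and lost their calls without 1 or more libraries (SUP without axr3 1 or arf6axr3 2, KAN4 without axr3 2, axr3 4, arf6axr3 1, arf6axr3 3 or arf6axr3 4). None of 4 female gametophyte genes was called (0 higher and 1 lower at an unadjusted p under 0.05; 0 by DESeq2).

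Of 23 carpel, style and transmitting tract regulators, 7 were called higher and 3 lower, with a median of −0.02. The share called was 43.5%, beside 8.56% over all genes. NTT, a zinc finger factor needed for the transmitting tract through which pollen tubes grow, stood at 71.0, 54.9, 59.2 and 53.5 CPM in arf6axr3 and 25.1, 18, 27.5 and 18.8 CPM in axr3 (1.38, SE 0.12, adjusted p = 6.23e-07), with 50.0 to 61.8 CPM in wild type. HAF, a bHLH factor of the same tissue, stood at 56.2 to 88.0 CPM against 24.9 to 48.6 CPM (0.92, SE 0.18, adjusted p = 0.00236). STY1, a style regulator, stood at 20.4 to 20.9 CPM against 4.39 to 11.4 CPM (1.23, SE 0.22, adjusted p = 0.00141). With named lines only, 3 regulators were called higher, and CRC and the NGA genes named below were not among them. CRC, a YABBY factor of carpels and nectaries, stood at 9.93 to 22.7 CPM against 1.26 to 5.99 CPM (2.29, SE 0.49, adjusted p = 0.00621).

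The style genes NGA1, NGA2 and NGA3 were called higher by 0.62 to 0.77, but NGA1 lost its call without axr3 1, axr3 2, arf6axr3 3 or arf6axr3 4, and NGA3 without arf6axr3 1. IND, the bHLH factor of the valve margin where the fruit opens, was lower, at 1.07, 0.643, 2.47 and 0.803 CPM in arf6axr3 against 7.99, 6.94, 5.65 and 12.0 CPM in axr3 (−2.78, SE 0.40, adjusted p = 0.000165). Here axr3 lay within or near the wild-type range of 6.38 to 14.6 CPM, and all 4 arf6axr3 libraries lay under it. ALC, a bHLH factor that acts with IND in fruit opening, stood at 115 to 136 CPM against 172 to 226 CPM (−0.65, SE 0.10, adjusted p = 0.00051), with wild type at 164 to 195 CPM. JAG, the last of the 3 lower, was called by −0.44 and lost its call without any 1 library other than axr3 3, and with named lines only.

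All 3 called among 6 class 1 KNOX genes and partners were lower (50% beside 8.56% over all genes), with a list median of −0.26. The KNOX genes of the list are homeobox genes of meristematic tissue, and AS1 and AS2 are the partners. KNAT2 stood at 13.4 to 15.9 CPM in arf6axr3 against 18.2 to 26.6 CPM in axr3 (−0.54, SE 0.12, adjusted p = 0.00631). KNAT6 and KNAT1 were called by −0.83 and −0.33, and the count was 1 without axr3 2, axr3 3, axr3 4, arf6axr3 1 or arf6axr3 3. With named lines only, KNAT2 lost its call. No CIN-type TCP gene, which promote differentiation, was called of 8 (1 higher and 0 lower unadjusted; 1 higher by DESeq2).

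**Figure D4:**
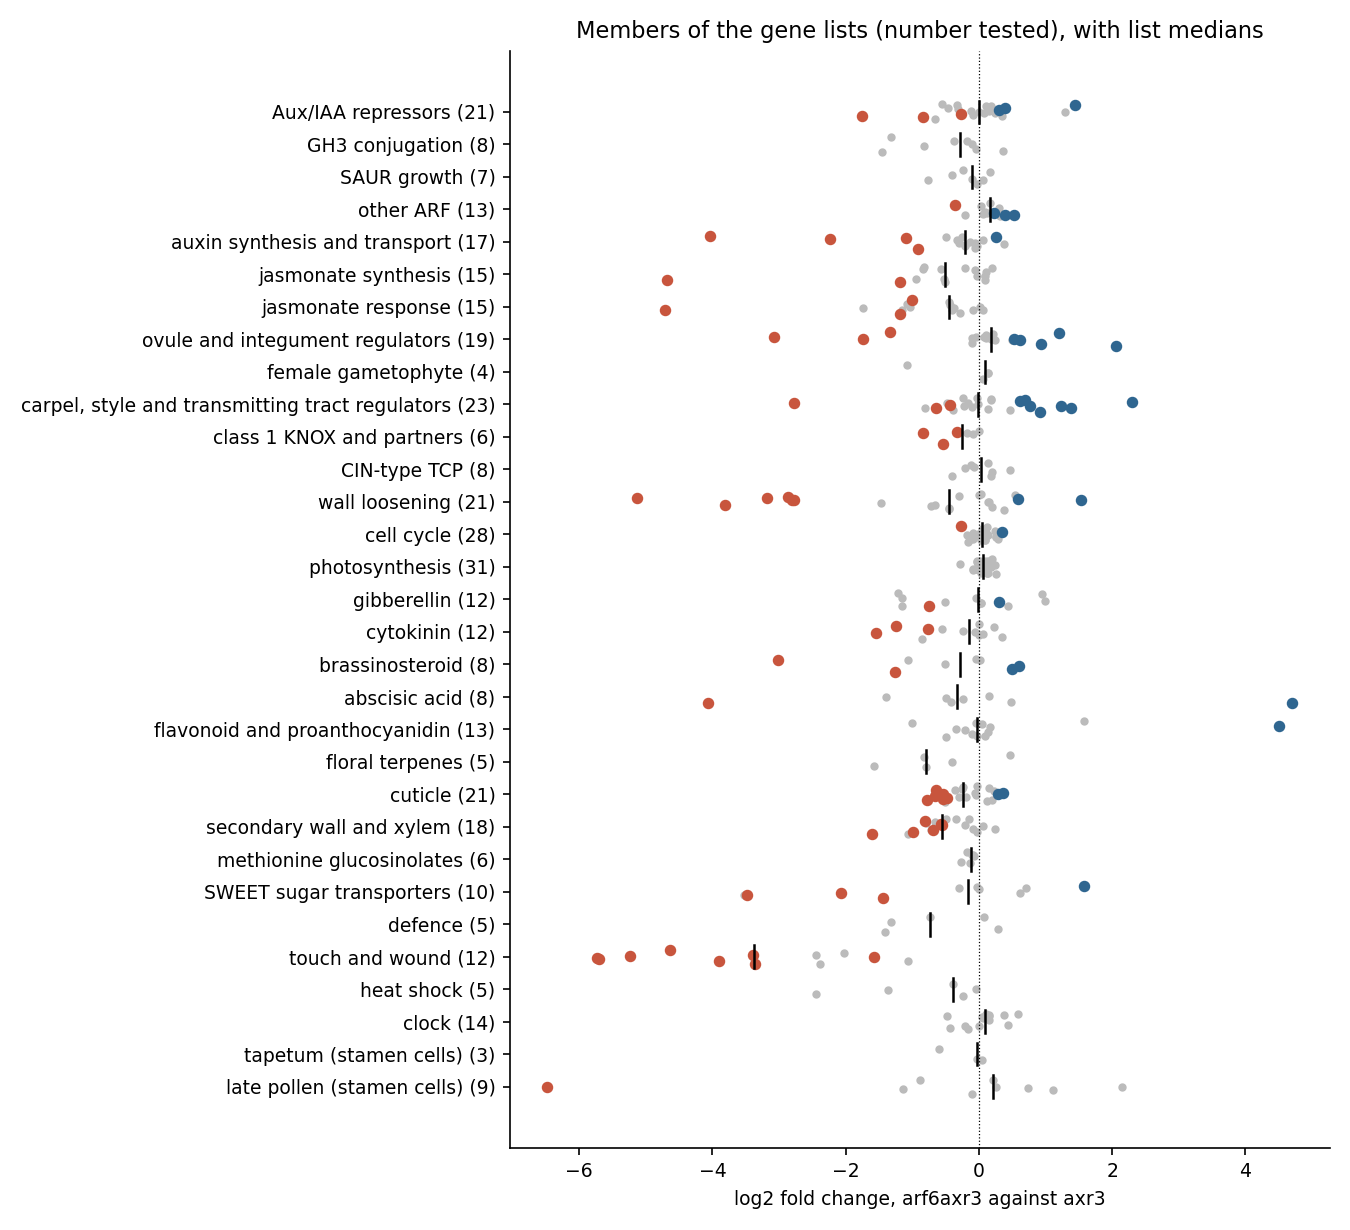
Log2 fold change of arf6axr3 against axr3 for each tested member of each gene list, with the number tested in brackets, members called higher in blue, called lower in red, not called in grey, and a bar at the list's median. Touch and wound has 8 members called lower and a median of −3.37, and photosynthesis has none called and a median of 0.06.

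Genes that loosen the cell wall during growth, the expansins and xyloglucan endotransglucosylases (XTHs), had 2 of 21 members called higher and 6 lower. Their share called was 38.1%, beside 8.56% over all genes, with a median of −0.44. EXPA9 stood at 3.35, 3.41, 3.70 and 3.33 CPM in arf6axr3 and 21.7, 32.7, 19.6 and 27.0 CPM in axr3 (−2.86, SE 0.18, adjusted p = 6.51e-09), with 1.43 to 2.24 CPM in wild type. XTH24 stood at 0.805 to 2.52 CPM against 9.82, 43.9, 8.97 and 33.0 CPM (−3.81, SE 0.48, adjusted p = 3.96e-05). XTH33, XTH22, XTH23 and XTH18 were lower, at −2.78 to −5.14. XTH18 lies 5161 bases from XTH24, so that reads could be shared within the family. Within axr3, XTH22 was highest in replicates 1 and 2, which name no line, and XTH23 overlapped between the groups. With named lines only, XTH22 lost its call (adjusted p = 0.222, edgeR) and XTH18 did not pass the filter on low counts. The number of list members called lower was 4 there. The part of handling in these levels was not tested. XTH15 rose, at 165 to 246 CPM against 45.4 to 104 CPM (1.54, SE 0.23, adjusted p = 0.000284), as did XTH28 (0.58, SE 0.08, adjusted p = 0.000136). The sum over the list was not lower in arf6axr3, at 2680 to 3860 CPM against 2600 to 3230 CPM in axr3.

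Of 18 secondary wall and xylem genes tested, 6 were called lower and none higher, or 33.3% beside 8.56% over all genes. The median was −0.56, with 1 higher at an unadjusted p under 0.05 and 0 higher by DESeq2. CAD5, an enzyme of lignin synthesis, stood at 33.4 to 43.6 CPM in arf6axr3 against 46.7 to 60.5 CPM in axr3 (−0.55, SE 0.10, adjusted p = 0.00163), and CESA4, a secondary wall cellulose synthase subunit, at 8.32 to 11.4 CPM against 12.4 to 16.4 CPM (−0.57, SE 0.12, adjusted p = 0.00613). The count was 3 without axr3 1, axr3 2, arf6axr3 1 or arf6axr3 2, and 1 with named lines only. Of 21 cuticle genes, 2 were called higher and 6 lower (38.1% beside 8.56% over all genes, median −0.23). CER3, needed for wax alkanes, stood at 464 to 503 CPM against 718 to 875 CPM (−0.66, SE 0.12, adjusted p = 0.00142), and KCS1, a fatty acid elongase, at 93.0 ± 12.5 CPM against 160 ± 3.53 CPM (SD, n = 4 each; log2 −0.78, SE 0.16, adjusted p = 0.0035, edgeR). The number of cuticle genes called lower was 3 without axr3 4 or arf6axr3 1 and 2 with named lines only, and the number called higher was 1 without axr3 2, arf6axr3 3 or arf6axr3 4.

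The few jasmonate genes that passed the test were lower. Of 15 genes of jasmonate synthesis, 2 were called lower, DAD1, a lipase, and LOX3, a lipoxygenase, with a median of −0.50. That is 13.3%, beside 8.56% called over all genes. The count was 1 without axr3 2 or axr3 4 and 0 with named lines only, where DAD1 did not pass the filter on low counts. Of 15 jasmonate response genes, 3 were called lower (20%, median −0.44). TAT3, a tyrosine aminotransferase induced by jasmonate, stood at 0.134, 0.386, 0.548 and 0.803 CPM in arf6axr3 and 14.3, 5.42, 12.7 and 18 CPM in axr3 (−4.72, SE 0.44, adjusted p = 9.55e-06). JAZ10, a repressor induced by jasmonate, stood at 13.7, 22.0, 19.0 and 22.0 CPM against 33.3, 40.8, 35.7 and 47.7 CPM (−1.01, SE 0.15, adjusted p = 0.000181), with 15.1 to 18.4 CPM in wild type. None in either list was called higher (0 in each unadjusted and by DESeq2).

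Of 8 brassinosteroid genes, 2 were called higher and 2 lower, or 50% beside 8.56% over all genes. In brassinosteroid metabolism SOB7, an inactivating P450, stood at 2.41, 2.7, 3.15 and 2.75 CPM in arf6axr3 and 19.9, 23.9, 18.9 and 27.2 CPM in axr3 (−3.01, SE 0.28, adjusted p = 1.26e-06). DWF4, a synthesis enzyme of the same hormone, stood at 16.4 to 20.1 CPM against 39.8 to 47.9 CPM (−1.26, SE 0.13, adjusted p = 3.56e-06). ROT3 and BAS1 were the higher ones, by 0.60 and 0.50, a count that was 0 without axr3 1 and with named lines only, and 1 without any other library except arf6axr3 3. Among 12 cytokinin genes, 3 were called lower (25% beside 8.56% over all genes, median −0.15). They were ARR6 at −1.55, CKX5 at −1.25 and ARR9 at −0.76. With named lines only none was called lower and 1 was called higher, and 1 was called higher without axr3 2. ARR9 lost its call without axr3 1, axr3 2 or arf6axr3 4. NCED2, of abscisic acid synthesis, stood at 0.129 to 0.229 CPM against 1.08 to 5.76 CPM (−4.06, SE 0.66, adjusted p = 0.00061, edgeR). Thus 1 of 8 abscisic acid genes was called in each direction (25% beside 8.56% over all genes), CYP707A2 being the higher. Of 12 gibberellin genes 1 was called in each direction (16.7% beside 8.56% over all genes). Each lost its call without axr3 2 and without several other libraries. Of 13 flavonoid genes TT12 alone was called (7.69%, under the share over all genes). A further member was called higher without axr3 2, axr3 4, arf6axr3 1, arf6axr3 3 or arf6axr3 4. In the other direction, 1 member was called lower by DESeq2, without axr3 4 and without arf6axr3 2.

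Of 10 SWEET sugar transporters tested, 1 was called higher and 3 lower, or 40% beside 8.56% over all genes. SWEET1, a glucose transporter, stood at 24.8, 26.6, 22.3 and 31.1 CPM in arf6axr3 and 90.3, 120, 113 and 121 CPM in axr3 (−2.08, SE 0.12, adjusted p = 4.60e-09), with 21.8 to 27.2 CPM in wild type. SWEET13, a sucrose exporter, stood at 0, 0.515, 0 and 0.459 CPM against 1.94, 1.86, 7.00 and 2.20 CPM (−3.48, SE 0.64, adjusted p = 0.00177), and SWEET4 was called by −1.44, a call lost without axr3 2 or arf6axr3 2. SWEET10, also a sucrose exporter, rose, at 34.0 to 59.6 CPM against 8.19 to 24.4 CPM (1.58, SE 0.31, adjusted p = 0.00308), and the arf6axr3 libraries lay above the wild-type range of 9.56 to 21.7 CPM. Of 28 cell cycle genes 7.14% were called, under the 8.56% over all genes. They were CYCD3;3, higher by 0.34, and CYCD3;2, lower by −0.26, and leaving out axr3 2 or arf6axr3 4 removed both. CYCD3;3 lost its call without axr3 1, axr3 4, arf6axr3 2 or arf6axr3 3 as well. No gene was called in 31 photosynthesis, 14 clock, 6 methionine glucosinolate, 5 floral terpene, 5 defence or 5 heat shock genes. At an unadjusted p under 0.05 these held 0, 1, 0, 0, 1 and 0 higher and 0, 0, 0, 2, 1 and 2 lower genes, and DESeq2 called 1 terpene gene lower and none of the others.

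Touch and wound genes, which respond within minutes to handling, had the largest share of called members of the 31 lists, 66.7% beside 8.56% over all genes, with 8 of 12 called lower, none higher and a median of −3.37. Their summed level was 38.8, 39.1, 51.4 and 50.7 CPM in arf6axr3 1 to 4 and 301, 349, 68.2 and 133 CPM in axr3 1 to 4, against 44.8 to 186 CPM in wild type. The 2 axr3 libraries with no line named were the highest of these 12. CML12, a calmodulin-like protein, stood at 0.671, 0.772, 1.1 and 1.26 CPM against 18.2, 23.0, 4.67 and 11.2 CPM (−3.90, SE 0.77, adjusted p = 0.00311). The count was 5 without axr3 2, 4 without arf6axr3 2 and 0 with named lines only, and none was called higher by DESeq2 or at an unadjusted p under 0.05. WRKY40 is a member of this list, and the part of handling in its level and in other differences was not tested.

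Pollen genes also separated axr3 1 from the rest. The 16 late pollen genes summed to 142, 36.8, 27.5 and 22.0 CPM in axr3 1 to 4 and to 29.5 to 50.4 CPM in arf6axr3, with the most abundant, VGD1, at 1.40 to 67.0 CPM over the 8 libraries. PPME1, a pectin methylesterase of pollen tubes, was the 1 of 9 tested called (−6.48, adjusted p = 0.0205, edgeR), or 11.1% beside 8.56% over all genes. Its level was 43.4 and 6.27 CPM in axr3 1 and 2 and 0 in axr3 3 and 4, against 0 to 0.344 CPM in arf6axr3, and the call was lost without axr3 1, arf6axr3 1 or arf6axr3 2. Heat shock genes summed to 82.3, 96.2, 52.7 and 39.5 CPM in axr3 and to 41.6 to 45.6 CPM in arf6axr3, and photosynthesis genes to 10500 to 15400 and 12400 to 15400 CPM. The part of pollen in other differences was not tested.

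**Figure D5:**
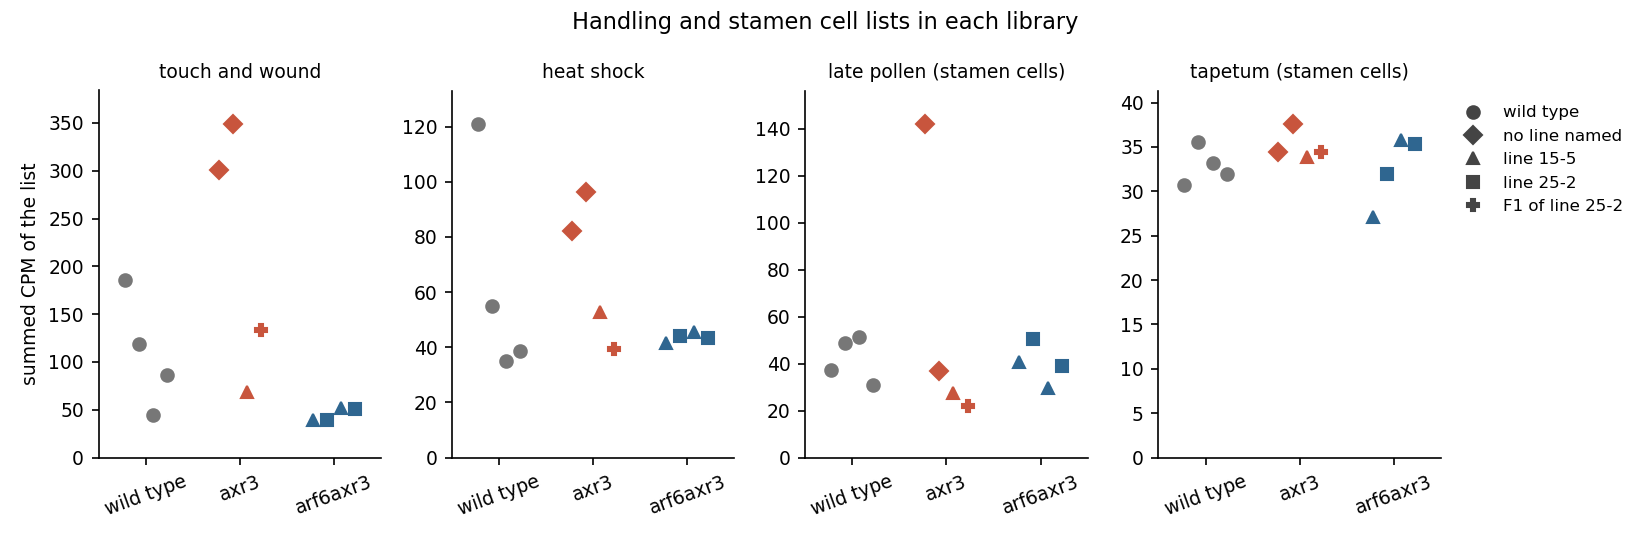
Summed CPM of the touch and wound, heat shock, late pollen and tapetum lists in each wild-type, axr3 and arf6axr3 library, with symbols for the transgenic line. Touch and wound genes sum to 38.8 to 51.4 CPM in arf6axr3 and spread from 68.2 to 349 CPM in axr3, and the late pollen sum of axr3 1 stands apart at 142 CPM.

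The arf6arf8 double mutant lacks the transgene and shares no library with the arf6axr3 to axr3 comparison. Against wild type, 1151 genes were higher (6.18%) and 926 lower (4.97%) in arf6arf8, 11.2% of those tested together, and the total was 792 without arf6arf8 1 and 753 without arf6arf8 2. Of the 675 genes higher in arf6axr3 than in axr3, 74 were also higher in arf6arf8 (11.0%) and 124 were lower (18.4%). Of the 918 lower genes, 70 were also lower (7.63%) and 149 were higher (16.2%). As shares of the arf6arf8 calls these are 6.43% and 12.9% of the 1151, and 7.56% and 13.4% of the 926. Calls in opposite directions thus outnumbered calls in the same direction, 273 to 144, and at an adjusted p under 0.01 by 91 to 51. BETAG4 and AT3G26140 were among the opposite ones, at 0.210 and 0.336 CPM and at 0.280 and 0.471 CPM in arf6arf8 1 and 2, while IND was among the shared ones, at 0.489 and 1.34 CPM. Touch and wound genes summed to 367 and 396 CPM in arf6arf8 1 and 2, and 6 of 12 were called higher there than in wild type. WRKY40 and CML12 of that list were among the opposite calls. The part of handling in these counts was not tested.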

How the data were processed

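Raw read counts per locus were deposited for each library by the authors, per the file headers and values, with 33602 loci in each. Per the submitters' processing notes, the tools were TopHat2, HTSeq and edgeR and the build was TAIR10. Versions, strand setting and order of steps are not given in the sources used here, so reads of overlapping or antisense genes may be mixed. Per the labels' protocols, TruSeq mRNA libraries gave single-end reads, each 50 bases long.

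Here, groups and lines were taken from the titles, since the genotype tag gives line 15-5 for every arf6axr3 library. The analysis used edgeR 4.0.16 and limma 3.58.1 under R 4.3.3: filterByExpr (minimum count 10, minimum total 15), TMM scaling and a quasi-likelihood F test in 1 fit of the 18 gynoecium libraries, including 4 of mARF8 plants that enter only the estimate of spread (13 residual degrees of freedom, biological coefficient of variation 0.117), with Benjamini-Hochberg adjustment across 18616 genes and a threshold of 0.05. Each SE equals the log2 fold change divided by the square root of F. DESeq2 1.42.0 was an alternative. On simulated data of 18318 genes, 80.0% of 100 genes changed 2-fold and 94.8% of 97 genes changed 4-fold were recovered, and 2.27% of calls were false. The simulated counts held far fewer changed genes than were called here and no differences between lines or in handling. These shares therefore need not hold for the calls above. Names, coordinates and promoters come from TAIR10.1, which matched 32835 loci, 10654 with a symbol.

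Named were the altered genes, the 12 called genes at either end of the log2 fold change (average log2 CPM 1 or more, groups not overlapping) and, from each list with 3 or more called, the 2 called members of smallest adjusted p. Further called list members, such as CRC, BEL1 and SWEET10, fall outside that rule and were chosen after their values were seen, as were all genes of the closing observations. The members, the 31 lists and the rule were chosen with earlier results of these data known, so counts are descriptions. Alternatives were other scalings, filters and tests, only the 2 groups, the library number or replicate number as a term, named lines, single lines and leaving out each library in turn.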

Additional observations from a re-analysis of the deposited data

Results flagged for a closer look

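A test of whether 1 of 4 replicates stands apart from the other 3 (Dixon's, 95% level) marks about 1 in 20 groups by chance. It was run in arf6axr3 and axr3 on the altered genes, the highest and lowest genes and those named from lists. Summed touch and wound, heat shock, photosynthesis and stamen cell lists were tested as well. Over that many groups several marks would arise by chance alone, and 5 values were picked. MPC stood at 0.137 CPM in arf6axr3 3 and at 0 in the other arf6axr3 libraries, a single count. CUC2 stood at 29.9 CPM in arf6axr3 1, just under the others at 33.3 to 33.8 CPM. SWEET13 stood at 7.00 CPM in axr3 3, above the other axr3 libraries at 1.86 to 2.20 CPM. The summed tapetum markers stood at 37.6 CPM in axr3 2, and the summed late pollen markers at 142 CPM in axr3 1.

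STK had log2 differences of opposite sign in the 2 lines, and passed the edgeR test in neither (adjusted p = 0.0696 with line 15-5 only and 0.239 with line 25-2 only, 0.0696 to 0.966 over all settings). On the log2 scale with 0.5 CPM added, arf6axr3 was above axr3 by 0.60 in line 15-5 and differed by −0.44 in line 25-2, where the axr3 library is an F1. Each line has a single axr3 library, and the difference between lines was not tested.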

How the results depend on the processing

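The 1593 calls of the arf6axr3 to axr3 comparison ranged from 1082 to 1817 when 1 library was left out, and lay from 1081 to 1894 under median-of-ratios or upper-quartile scaling, DESeq2, no filter, a filter at 5 CPM, the 2 groups alone and the library number as a term. They fell to 874 with named lines only, 930 with the line as a further term, 413 with line 15-5 only and 525 with line 25-2 only. These fits hold fewer libraries, and a lone library is assumed there to vary like the others. The filter at 5 CPM moved the split to 548 higher and 533 lower. In the other comparisons, arf6axr3 against wild type gave 507 with DESeq2 and 143 to 373 with 1 library left out, axr3 against wild type 2213 to 3125, arf6arf8 against wild type 753 to 2285, and line 25-2 against 15-5 gave 19 with DESeq2 and 2 to 23. At an adjusted p under 0.01 the calls shared with arf6arf8 were 51 in the same and 91 in the opposite direction.

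Among genes called in the main fit, log2 fold changes reversed for PPME1 and the pollen gene AT3G28830. PPME1 stood at 3.36 with named lines, 3.39 with the line term, 3.4 with line 15-5 and 3.33 with line 25-2. AT3G28830 stood at 1.83, 1.96, 1.74 and 2.73 there. HA9 (0.04 with line 25-2) and CYCD3;3 (−0.03 with line 15-5) reversed as well. The cause was not tested, and PPME1, AT3G28830 and HA9 were high in axr3 1 and 2, which these settings leave out. Of 2399 values of named genes, 1955 kept their side of the threshold and 434 lost the call. The 1955 include changes of sign where neither fit called the gene, as for STK (0.29, but −0.45 with line 25-2 only). Among the 12 highest genes 7, among the 12 lowest 9, and among the 27 named from lists 12 kept their calls under each alternative that could be fitted.

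Replicate numbers are shared by the groups but do not pair libraries: the correlations of same-numbered deviations were 0.16, −0.04, 0.04 and 0.02, and no library matched its own number best. With the replicate block the comparison gave 1758 calls. Depth limits genes near 3 counts, or 0.195 to 0.575 CPM.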

Other observations

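Several further genes were chosen after their values were seen. LAS, a GRAS factor needed for axillary meristems, stood at 1.34, 3.02, 2.88 and 2.64 CPM in arf6axr3 1 to 4 and at 33.2, 45.6, 29.2 and 35.2 CPM in axr3 1 to 4 (log2 fold change −3.81, SE 0.21, adjusted p = 1.43e-09, edgeR quasi-likelihood test), with 0.984 to 1.75 CPM in wild type. LOB, a gene of lateral organ boundaries, stood at 0.268 to 1.23 CPM against 2.24 to 3.9 CPM (−1.70, SE 0.38, adjusted p = 0.00804), and its call was lost with named lines only.

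AGO3, an Argonaute protein that binds small RNAs, stood at 7.65, 4.89, 8.49 and 6.20 CPM in arf6axr3 and at 170, 243, 149 and 168 CPM in axr3 (−4.79, SE 0.19, adjusted p = 2.61e-11), with 2.63 to 2.99 CPM in wild type. ADPG1, a polygalacturonase of dehiscence and abscission zones, stood at 1.26 to 2.82 CPM against 10.9 to 15.2 CPM (−2.88, SE 0.34, adjusted p = 1.61e-05). FAR1, of the same fatty acyl-CoA reductase family as FAR4 and FAR5, moved the other way, at 53.0 to 63.3 CPM in arf6axr3 against 16.6 to 23.1 CPM in axr3 (1.48, SE 0.14, adjusted p = 9.52e-07), with wild type at 60.6 to 65.9 CPM. LAS, AGO3, ADPG1 and FAR1 kept their calls under each alternative run.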
